A study of Mus musculus with 6 samples.

Results

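The polypyrimidine tract binding (PTB) proteins and the Rest-Srrm4 pair are regulators that mark the border between neuronal and non-neuronal cells. Here they were followed as 7 genes of the 23038 listed. The genes were taken by symbol and are the PTB family Ptbp1, Ptbp2 and Rod1 (the older symbol of Ptbp3), the PTB cofactors Raver1 and Raver2, the splicing regulator Srrm4 and the transcriptional repressor Rest. Of these, 6 were abundant enough to be tested and 1, Raver2, was not.

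PTB proteins bind pyrimidine-rich stretches of pre-mRNA and usually keep nearby exons out of the mature transcript. Ptbp1 predominates in most dividing cells, where it holds back neuronal exons and also its paralog Ptbp2, whose transcript is degraded when one short exon is skipped. During neuronal differentiation Ptbp1 gives way to Ptbp2. Rest, the repressor of neuronal genes that binds the RE1 element, silences Srrm4 outside neurons, and Srrm4 in turn activates neuronal microexons and switches Rest to a truncated form.

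The cells were NSC-34, a mouse line obtained by fusing neuroblastoma cells with motor neurons of the spinal cord and grown here in DMEM with 10% FCS, and their poly-A RNA was sequenced. Control siRNA (siNC) was given to 3 cultures and siRNA against Qk (siQk), the gene of the Quaking RNA-binding proteins, to another 3, and cells were collected 3 days after transfection. Both groups share the line, medium and transfection, and 3 different Qk siRNAs were used, with no label stating which library received which. The replicates are described as independent cultures of this one line, so p-values measure the spread between such cultures. Within siQk this spread can also include differences between the siRNAs, which cannot be told apart from those between cultures.

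Each library held 43000503 to 53565950 counts, and levels are given in RPKM, expected counts relative to exon length and library total. Qk, the siRNA target, had 9.68, 8.18 and 14.9 RPKM in siNC and 1.39, 1.71 and 1.10 RPKM in siQk, so its groups did not overlap. It was the 1 gene of 12665 tested that edgeR's quasi-likelihood test called changed (log2 fold change -2.997, SE 0.34, adjusted p = 0.0149). A call required both an unadjusted p under 0.01 and an adjusted p (Benjamini-Hochberg) under 0.1. The libraries siQk 2 and siNC 3 stood apart from the others, on principal components holding 41.2% and 28.9% of the variance. Markers of the sympathetic neuroblastoma parent were abundant (8 of 8 genes tested, summed level 332 to 528 RPKM, Hand2 at 163 RPKM). The motor neuron set summed to 10.3 to 11.9 RPKM in siNC and 14.8 to 17.3 RPKM in siQk, with 4 of its 8 genes tested. Isl1 (6.69 RPKM), Isl2 (3.73 RPKM) and the cholinergic marker Slc18a3 (1.97 RPKM) were present, whereas Chat (0.0883 RPKM), Mnx1 (0.0395 RPKM) and Slc5a7 (0.00734 RPKM) lay near 0. The oligodendrocyte set summed to 3.27 to 3.73 RPKM in siNC and 1.79 to 2.95 RPKM in siQk, with Sox10, Olig1 and Olig2 at or below 0.0318 RPKM in every library. In bulk RNA, fewer cells of a type and less RNA per cell cannot be told apart.

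The short exon through which PTB proteins control their own family is shown first, since all 3 paralogs carry it. It has 34 bases, a length that is not a multiple of 3, so that skipping it shifts the reading frame. In the GENCODE annotation of GRCm38 it is exon 9 of 13 in Ptbp1 (chr10:79862014-79862047, plus strand), exon 10 of 14 in Ptbp2 (chr3:119724612-119724645, minus strand) and exon 10 of 14 in Ptbp3, the Rod1 of the deposited tables (chr4:59485339-59485372, minus strand). Capitals mark bases that differ from Ptbp1.
Ptbp1: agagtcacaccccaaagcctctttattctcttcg
Ptbp2: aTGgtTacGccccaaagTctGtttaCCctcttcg
Ptbp3: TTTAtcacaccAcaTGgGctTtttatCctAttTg
Ptbp2 differed from Ptbp1 at 8 positions and Ptbp3 at 12. The annotation holds 2 transcripts of Ptbp1 and 2 of Ptbp2 that skip this exon, and all 4 are classed as targets of nonsense-mediated decay, whereas 0 of the Ptbp3 transcripts skip it. Over this exon and its neighbours (422 aligned bases) Ptbp1 and Ptbp2 were 72.5% identical, Ptbp1 and Ptbp3 70.9%, and Ptbp2 and Ptbp3 70.4%. The deposited values sum all isoforms of a gene, so inclusion of the exon is not analysed here.

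Ptbp1 was by far the most abundant of the 7 transcripts, and its level did not differ between treatments beyond the spread of the libraries. It had 242, 219 and 239 RPKM in siNC and 228, 197 and 253 RPKM in siQk. The siQk libraries held both the lowest and the highest value, and the groups overlapped. The log2 fold change was -0.07 (SE 0.13, 95% interval -0.43 to 0.29, unadjusted p = 0.646 and adjusted p = 1 by edgeR), and it was 0.02 without siQk 2, the lowest library. With a mean of 230 RPKM, Ptbp1 ranked 237th of the 23038 genes, above 99.0% of them. Ptbp1 (chromosome 10, 79854427 to 79864771, plus strand) shares 983 exon bases with genes on the other strand, which the unstranded kit cannot separate. Of those genes, BC005764 (Plppr3) lay at 15.3 to 24.4 RPKM and E130317F20Rik at 7.84 to 10.8 RPKM.

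Ptbp2, the neuronal paralog, was present in every library at a far lower level. It had 15.4, 13.1 and 16.1 RPKM in siNC and 21.3, 13.3 and 19.8 RPKM in siQk. The siQk 1 and siQk 3 libraries lay above all controls, whereas siQk 2 lay among them. The group means were 14.9 ± 1.59 and 18.1 ± 4.24 RPKM (SD, n = 3 each), the log2 fold change was 0.26 (SE 0.24, 95% interval -0.42 to 0.94), and edgeR gave an unadjusted p of 0.245 and an adjusted p of 1. Leaving out siQk 2 raised the log2 fold change to 0.44 (unadjusted p = 0.036, adjusted p = 1 by edgeR). Leaving out siQk 1, siNC 2 or siQk 3 lowered it to 0.13, 0.15 and 0.18 (unadjusted p = 0.61, 0.544 and 0.492 by edgeR). Without siQk 2 and siNC 3 together, a choice made after the data were seen, it was 0.53 (unadjusted p = 0.00997, adjusted p = 0.792), so no setting brought Ptbp2 past the adjusted threshold. Its exons (chromosome 3, 119718742 to 119784466, minus strand) share no base with another annotated gene.

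Rod1, a PTB paralog with a known role in blood cell differentiation, lay between the other two on average. It had 19.7, 23.2 and 26.3 RPKM in siNC and 26.1, 24.6 and 25.5 RPKM in siQk. The siQk libraries were closely grouped within the upper range of the controls, which spread more widely. The means were 23.1 ± 3.29 and 25.4 ± 0.758 RPKM (SD, n = 3 each), for a log2 fold change of 0.11 (SE 0.14, 95% interval -0.28 to 0.50, unadjusted p = 0.519 and adjusted p = 1 by edgeR). That value was 0.0017 without siNC 1 and 0.24 without siNC 3. The annotated gene, Ptbp3, lies on chromosome 4 from 59471868 to 59549364 on the minus strand and shares 207 exon bases with a pseudogene on the plus strand.

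Summed over the family, PTB transcripts came to 271 ± 14.3 RPKM in the controls and 269.5 ± 32.1 RPKM after siQk (SD, n = 3 each). Ptbp1 made up 87.3%, 85.8% and 84.9% of that sum in siNC and 82.8%, 83.9% and 84.8% in siQk. The Ptbp1 share was therefore lower in every siQk library than in any control, with siNC 3 (84.94%) and siQk 3 (84.82%) the nearest pair. Ptbp2 took 5.13% to 5.72% in siNC and 5.67% to 7.73% in siQk, and Rod1 took 7.12% to 9.34% and 8.55% to 10.5%, so both of these shares overlapped between groups. The ratio of Ptbp1 to Ptbp2 was 15.7, 16.7 and 14.9 in siNC and 10.7, 14.8 and 12.8 in siQk. These ratios, which rest on the same values as the shares, did not overlap either, but siNC 3 (14.85) and siQk 2 (14.80) were nearly equal. The levels of Ptbp1 and of Ptbp2 each overlapped between groups. Single genes had groups without overlap in 8.84% of those tested, and no such figure was computed for shares or ratios. With 3 libraries against 3, an exact two-sided permutation p cannot fall below 0.1.

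**Figure D1:**
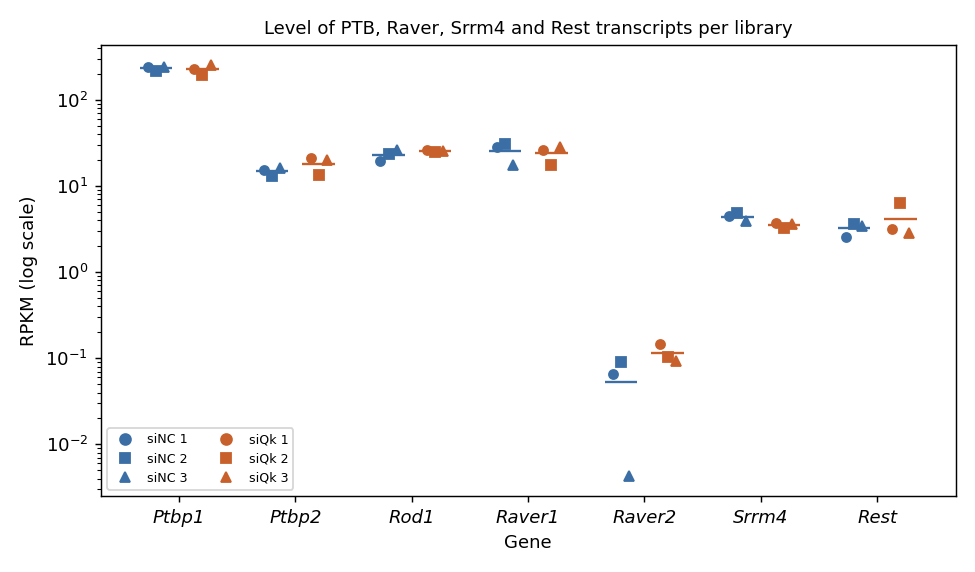
Level of the 7 transcripts in each of the 6 libraries, in RPKM on a log axis, with siNC in blue and siQk in orange, 1 symbol per replicate number and a bar at each group's mean. Ptbp1 sits near 230 RPKM in both groups, Raver1, Rod1 and Ptbp2 between 13.1 and 30.5 RPKM, Srrm4 and Rest between 2.56 and 6.32 RPKM, and Raver2 below 0.147 RPKM.

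Raver1 and Raver2 encode ribonucleoproteins that bind PTB and help it repress exons. Raver1 had 28.7, 30.5 and 17.8 RPKM in siNC and 25.9, 17.4 and 28.5 RPKM in siQk. One library of each group, siNC 3 and siQk 2, was low, and these are the 2 libraries that stood apart across all genes. The log2 fold change was -0.12 (SE 0.31, 95% interval -0.98 to 0.75, unadjusted p = 0.668 and adjusted p = 1 by edgeR) and turned to 0.07 without siQk 2. The Raver1 value is uncertain in another way, because the deposited table counts it over 667 bases, 19.2% of the 3470 annotated exon bases (chromosome 9, 21074158 to 21092008, minus strand), and 3459 of the annotated bases belong also to a gene model on the same strand, Gm38431.

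Raver2 was close to undetected. It had 18, 23 and 1 counts in siNC (0.0657, 0.0903 and 0.00432 RPKM) and 36, 30 and 23 counts in siQk (0.147, 0.104 and 0.0927 RPKM). The groups did not overlap, with siQk 3 just above siNC 2, and the exact two-sided permutation p was 0.1, the smallest this design allows. The single count in siNC 3 lies under the floor of 3 counts set for a detected gene, and Raver2 did not pass the filter. Fitted without the filter by edgeR, its log2 fold change was 1.07 (unadjusted p = 0.121, adjusted p = 0.996). The difference in mean log2 CPM was 1.43 with all libraries and 0.50 without siNC 3. Raver2 lies on chromosome 4 from 101068983 to 101152370 on the plus strand and shares 67 exon bases with 2 genes on the minus strand.

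Srrm4, the activator of neuronal microexons, gave the only tested set of values without overlap between treatments. It had 4.44, 4.88 and 3.91 RPKM in siNC and 3.69, 3.25 and 3.58 RPKM in siQk. Every siQk library lay below every control, with siQk 1 and siNC 3 the nearest pair. The means were 4.41 ± 0.486 and 3.51 ± 0.232 RPKM (SD, n = 3 each), so siQk held 79.4% of the control mean. The log2 fold change was -0.35 (SE 0.09, 95% interval -0.60 to -0.11 from the spread of these 6 values alone). By edgeR, which shares information on the spread across genes, the unadjusted p was 0.0627 and the adjusted p was 1, and 3.93% of the genes tested had a smaller p. Non-overlapping groups were found for 8.84% of the tested genes in either direction and for 3.49% with siQk lower, against 1 of the 6 tested members. The log2 fold change stayed between -0.41 and -0.30 in all 15 alternative settings, and its unadjusted p was under 0.05 in 3 of them, by DESeq2, without siNC 3 and without siNC 3 and siQk 2 together. The smallest adjusted p over these settings was 0.792. Of the marker sums given above, that of motor neurons was higher and that of the oligodendrocyte lineage lower in every siQk library than in any control, and their part in this difference was not tested. Srrm4 (chromosome 5, 116439275 to 116591817, minus strand) shares 68 exon bases with the antisense gene Srrm4os.

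Rest had nearly the same mean over all 6 libraries as Srrm4, but in siNC alone it lay below Srrm4 without overlap. For Rest, 1 library set the average difference between treatments. It had 2.56, 3.65 and 3.44 RPKM in siNC and 3.16, 6.32 and 2.86 RPKM in siQk. The siQk 2 library was the highest of the 6, and the other siQk libraries lay within the control range. The means were 3.22 ± 0.577 and 4.11 ± 1.92 RPKM (SD, n = 3 each), with a log2 fold change of 0.33 (SE 0.39, 95% interval -0.75 to 1.41, unadjusted p = 0.321 and adjusted p = 1 by edgeR). Without siQk 2 the log2 fold change was -0.12, and without siQk 2 and siNC 3 it was -0.04, so the direction rested on that library. Rest lies on chromosome 5 from 77265491 to 77286432 on the plus strand and shares no exon base with another annotated gene. The table counts it over 4484 bases, 62.1% of its annotated exon bases, and the truncated and full-length forms are summed.

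**Figure D2:**
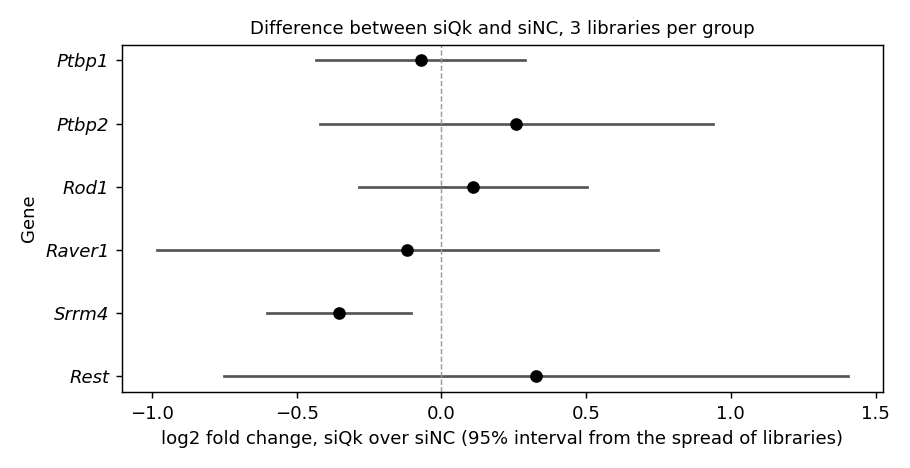
Log2 fold change of siQk over siNC for the 6 tested genes (points) with the 95% interval from the spread of 3 libraries per group (lines), where 0 marks no difference. Srrm4 at -0.35 is the gene whose interval does not cross 0, Rest has the widest interval (-0.75 to 1.41), and no gene was called changed by the test across all genes.

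Srrm4 exceeded Rest in 5 of the 6 libraries. The ratio of Srrm4 to Rest was 1.73, 1.34 and 1.14 in siNC and 1.17, 0.514 and 1.25 in siQk. The groups overlapped, and siQk 2 was the library in which Rest exceeded Srrm4. Across the 7 genes the order of mean RPKM was Ptbp1, Raver1, Rod1, Ptbp2, Srrm4, Rest and Raver2. Ptbp1 exceeded Raver1 9.27-fold and Ptbp2 exceeded Srrm4 4.17-fold, each in all 6 libraries and with no overlap of ranges. Raver1 and Rod1 were not separated (24.8 and 24.3 RPKM, Raver1 higher in 3 of 6 libraries), nor were Srrm4 and Rest over all 6 libraries (3.96 and 3.67 RPKM). In siNC alone Srrm4 (3.91 to 4.88 RPKM) lay above Rest (2.56 to 3.65 RPKM) without overlap. Rod1 exceeded Ptbp2 within all 6 libraries although their ranges overlapped.

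**Figure D3:**
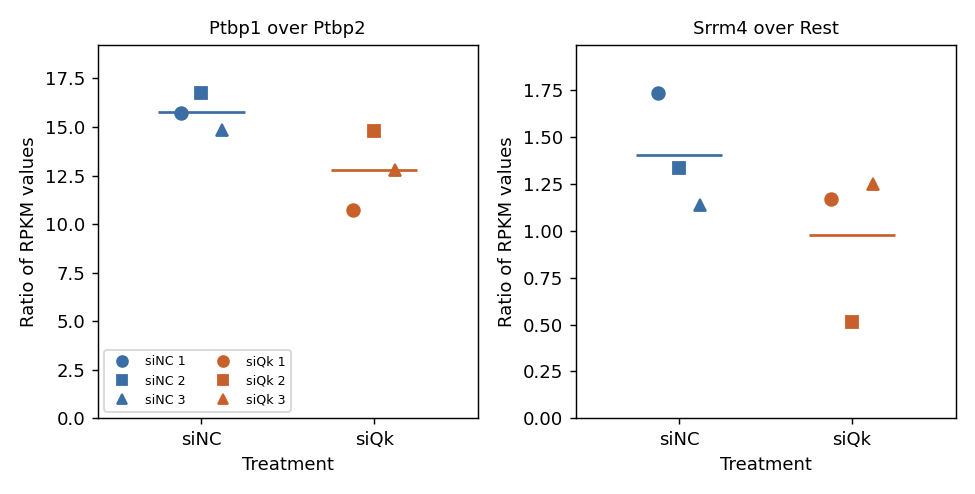
Ratio of Ptbp1 to Ptbp2 (left) and of Srrm4 to Rest (right) per library, from RPKM values, with axes that start at 0, bars at the group means and 1 symbol per replicate number. The Ptbp1 to Ptbp2 ratio is 14.9 to 16.7 in siNC and 10.7 to 14.8 in siQk, while the Srrm4 to Rest ratios overlap because siNC 3 (1.14) lies below siQk 1 (1.17) and siQk 3 (1.25).

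Among the 6 tested members, 0 were called changed, against 0.0079% of all tested genes. At an unadjusted edgeR p under 0.05 the count was also 0, against 2.89% of all genes (366 of 12665). DESeq2 gave 1 member at that level, Srrm4, against 460 of the 12665 genes. The members divided into 3 with a log2 fold change above 0 and 3 below 0, and these had a median of 0.02, beside 0.00 over all genes (6438 higher, 6227 lower).

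The genes linked to these regulators were taken from 6 lists of textbook relatives, partners and targets, and 0 of their genes were called changed. Genes are counted as higher or lower in siQk by the sign of their fitted log2 fold change, which for genes close to 0 can differ from that of the mean RPKM. Relatives and partners of PTB proteins were all measured (9 of 9 tested), 8 higher and 1 lower in siQk. Their median log2 fold change was 0.08 (0.03 to 0.18 with 1 library left out, highest without siNC 3), and 0 genes had an unadjusted p under 0.05. The most abundant were the poly(C)-binding protein Pcbp2 (374 and 398 RPKM in siNC and siQk) and the PTB-like protein Hnrnpl (169 and 170 RPKM). Pspc1, a paraspeckle protein, had the smallest p of the list. Its values were 13.5, 16.6 and 11.8 RPKM in siNC and 16.5, 22.9 and 17.1 RPKM in siQk (log2 fold change 0.41, unadjusted p = 0.0582 by edgeR), and the groups overlapped only in siNC 2 and siQk 1. Khsrp, a KH-domain splicing regulator that binds with PTB, had 35.7 and 42.0 RPKM (log2 fold change 0.22).

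Of 20 transcripts known to carry exons under PTB control, 18 were tested, and 12 were lower and 6 higher in siQk (median log2 fold change -0.10, -0.15 to -0.03 with 1 library left out). Mapt, which encodes the microtubule protein tau, was the 1 gene at an unadjusted p under 0.05. It had 21.4, 25.7 and 17.7 RPKM in siNC and 14.9, 17.7 and 14.2 RPKM in siQk, with a log2 fold change of -0.49 (SE 0.16, unadjusted p = 0.0175, adjusted p = 1 by edgeR). Its groups did not overlap, by the difference between siNC 3 (17.67 RPKM) and siQk 2 (17.65 RPKM). In this list 2 of the 18 tested genes had groups without overlap, against 8.84% of all tested genes. The tropomyosin Tpm1 had 36.5 and 29.9 RPKM (log2 fold change -0.31, unadjusted p = 0.0928 by edgeR), whereas the glycolytic enzyme Pkm (446 and 430 RPKM) and the actin crosslinker Actn1 (98.1 and 99.95 RPKM) were nearly level. These are gene totals, in which an exon can change with no change of the total.

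The Srrm relatives and cofactors were 5 genes, all tested, with 2 higher and 3 lower in siQk and a median of -0.09. That median was -0.14 to -0.02 with 1 library left out, nearest to 0 without siQk 2, and turned to 0.08 without siQk 2 and siNC 3 together. Srrm2, a large scaffold protein of nuclear speckles, had 66.0 and 61.7 RPKM, Srrm1 had 50.8 and 48.5 RPKM, and Srsf11, which assists Srrm4 at microexons, had 53.0 and 45.5 RPKM (log2 fold change -0.25, unadjusted p = 0.173 by edgeR). Of 19 transcripts with microexons under Srrm4 control 17 were tested, and 14 were lower and 3 higher in siQk (median -0.09, -0.19 to -0.06 with 1 library left out). Agap1, an Arf GTPase-activating protein of endosomes, was the 1 gene at an unadjusted p under 0.05. It had 12.1, 11.5 and 11.5 RPKM in siNC and 8.39, 7.25 and 8.39 RPKM in siQk, and no value of one group came near the other. The log2 fold change of Agap1 was -0.57 (SE 0.08, unadjusted p = 0.00353, adjusted p = 1 by edgeR). Zfyve27, named after its values were seen, also had groups without overlap (16.4 to 17.6 RPKM and 15.2 to 15.6 RPKM, unadjusted p = 0.249 by edgeR). With Agap1 that made 2 of the 17 tested genes of this list, against 8.84% of all tested genes. The scaffold protein Ank2 had 11.02 ± 1.18 and 7.996 ± 2.36 RPKM (SD, n = 3 each, log2 fold change -0.49), with siQk 2 lowest and siQk 1 inside the control range. The translation factors Eif4g1 (213 and 199 RPKM) and Cpeb4 (63.5 and 59.7 RPKM) had the highest levels of the list and log2 fold changes of -0.13 and -0.11. The Cpeb4 level rests on 1086 counted exon bases, against 5489 for Eif4g1.

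Rest acts with corepressor complexes, and 19 of 20 listed cofactors and regulators were tested, 10 higher and 9 lower in siQk (median log2 fold change 0.01, range over genes -0.20 to 0.18). The median was below 0 without siNC 2, siNC 3, siQk 1 or siQk 3, down to -0.07 without siQk 3. The histone deacetylase Hdac2 had 148 and 155 RPKM, the histone demethylase Kdm1a 80.2 and 71.8 RPKM, and the corepressor Sin3a 22.7 and 25.9 RPKM. Usp7, a deubiquitinase that stabilises Rest, was named after its values were seen and had groups without overlap, at 49.1 to 54.3 RPKM in siNC and 55.8 to 57.1 RPKM in siQk (log2 fold change 0.09). It was the 1 such gene of the 19 tested, against 8.84% of all tested genes. Sin3b was listed at 0 in all 6 libraries.

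Genes known for an RE1 element included very abundant transcripts beside nearly absent ones in the same cells. Of 28 such genes 21 were tested, 9 higher and 12 lower in siQk, and the median of their log2 fold changes was -0.13. Among these, 0 had an unadjusted p under 0.05 by edgeR, against 2.89% of all tested genes. Groups without overlap were found for 0 of them, against 8.84% of all tested genes. The median turned to 0.06 without siNC 2 and to 0.02 without siQk 2. Chgb, a granin of secretory vesicles, was the most abundant, at 291, 828 and 239 RPKM in siNC and 295, 388 and 420 RPKM in siQk. A single control, siNC 2, lay far above the other 5 libraries. The neuronal tubulin Tubb3 had 347, 318 and 142 RPKM in siNC and 349, 186 and 319 RPKM in siQk, low in the 2 libraries that stood apart. Syt4, a synaptotagmin of dense-core vesicles, had the smallest p of the list, with 48.5, 31.8 and 63.5 RPKM in siNC and 35.6, 32.7 and 33.4 RPKM in siQk (log2 fold change -0.53, unadjusted p = 0.053 by edgeR). Its groups overlapped through siNC 2. Stmn2, Gria2, Glra1 and Crh each lay at or below 0.0261 RPKM in every library.

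**Figure D4:**
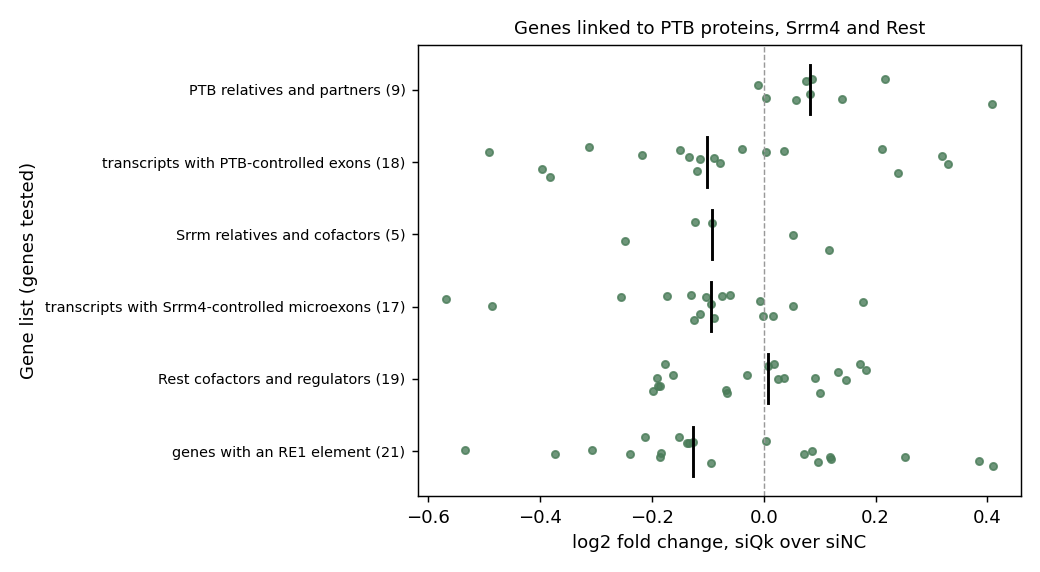
Log2 fold change of siQk over siNC for each tested gene (points) of the 6 lists, with a black bar at each list's median and the number of genes tested in brackets. Medians lie between -0.13 and 0.08, the points run from -0.57 (Agap1) to 0.41 (Scg2), and none of the genes was called changed.

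The RE1 element itself can be read in some of these promoters. The letters TTCAGCACC and GGACAGC, its left and right arms, were searched on both strands in RefSeq promoters (GRCm38.p6, 250 bases before to 50 after a start). Of all 32851 promoters, 0.371% held the left arm, 6.56% the right arm and 6.89% either. Of 27 promoters of 19 listed RE1 genes, 4 held the left arm (14.8%), 4 the right arm (14.8%) and 6 either (22.2%). Promoters were matched for 5 members (Ptbp1, Ptbp2, Srrm4, Raver1 and Raver2), and 1 of them, that of Ptbp2, held the right arm. The windows of the 6 genes and of Ptbp2 are shown with the matched letters in capitals. They are Scg2 (chr1:79440021-79440049, plus strand), Unc13a (chr8:71671723-71671754, plus strand), Celsr3 (chr9:108825914-108825942, plus strand), Syn1 (chrX:20921126-20921154, minus strand), Gria2 (chr3:80802982-80803010, plus strand), Tubb3 (chr8:123411560-123411588, minus strand) and Ptbp2 (chr3:119783539-119783567, plus strand).
Scg2: ccgtTTCAGCACCGGACAGCtcctcggct
Unc13a: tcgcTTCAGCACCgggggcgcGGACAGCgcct
Celsr3: tccgTTCAGCACCgtgggcagcacttctg
Syn1: cggaTTCAGCACCgcggtcagagccttcg
Gria2: attcgattttagcaccgcGGACAGCgctt
Tubb3: agagacgaaaaggcaggcGGACAGCaggc
Ptbp2: ccgtgggcggtgtgagtgGGACAGCctgc
The Scg2 and Unc13a windows hold both arms on one strand, directly joined in Scg2. A match of letters is a description and not a shown binding site. The genes with both arms were expressed beside Rest, Scg2 with 17.8, 22.1 and 19.0 RPKM in siNC and 22.9, 36.2 and 20.6 RPKM in siQk, and Unc13a with 24.1, 38.4 and 20.9 RPKM in siNC and 29.6, 34.8 and 27.2 RPKM in siQk. Syn1 (mean 4.45 RPKM) and Celsr3 (mean 6.85 RPKM) were lower, and Gria2 was nearly absent.

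For each tested member the 2 genes most like it in profile were found by Pearson's r of log2 CPM over the 6 libraries, among all genes tested. These values describe 6 libraries of one line in 2 treatments and carry no test. Ptbp1 was most like Ptges3 (r = 0.991) and Phrf1 (r = 0.982), Ptbp2 like Ick (r = 0.983) and Safb2 (r = 0.98), and Rod1 like Zfml (r = 0.998) and Scai (r = 0.984). Raver1 was most like Lyrm2 (r = 0.994) and Spock2 (r = 0.993), Srrm4 like Myo9b (r = 0.994) and Klhl22 (r = 0.983), and Rest like Tiparp (r = 0.995) and Pet2 (r = 0.990). An r above 0.9 was reached by 67 genes for Ptbp2, 88 for Srrm4, 104 for Ptbp1, 153 for Rod1, 351 for Rest and 427 for Raver1. Among the members themselves Pearson's r was farthest from 0 between Rest and Ptbp1 (r = -0.82) and between Rest and Raver1 (r = -0.78), and siQk 2, with the highest Rest and the lowest Ptbp1 and Raver1, lies at the end of both. By rank these relations were weaker (Spearman's rho -0.54 and -0.66), and the value farthest from 0 was that of Raver1 and Srrm4 (rho = 0.77).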

How the data were processed

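The authors selected poly-A RNA from NSC-34 cells, made unstranded libraries, sequenced read pairs, mapped these with OLego and quantified genes with Quantas. The deposited tables list for each gene an expected count, the exon length and an RPKM value, which the authors scaled by the column total, and 21.9% to 22.9% of the expected counts were not whole. Expected counts were rounded, scaled by TMM (factors 0.956 to 1.02) and kept where the average log2 CPM exceeded 0 (12665 of 23038 genes). The groups were compared in R 4.3.3 by the quasi-likelihood test of edgeR 4.0.16, over all 6 libraries with treatment as the single term, and p-values were adjusted over all genes kept. Fold changes are log2 values. Their SE and 95% interval rest on how TMM-scaled log2 CPM (with a prior count of 2) varied within groups, with 4 degrees of freedom. RPKM values were compared by two-sided exact permutation over 20 arrangements, whose smallest p is 0.1. The code was tested on simulated data. Counting error is small at these depths except for Raver2. The study's methods name the mouse build in 2 ways that do not match, and positions given here come from GENCODE M21 (GRCm38), not from the authors' gene models.

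The members and the gene lists were chosen with earlier results of these data known. The genes named are Qk, the members, of each list those called, the 2 with the smallest p and the 2 most abundant, and for each tested member the 2 most alike, and any other gene was named after its values were seen. Some genes named by this rule are not reported here. The alternatives were DESeq2 size factors, total counts and upper quartile scaling, no filter and filterByExpr (minimum count 10), the edgeR exact test, DESeq2 1.42.0, a replicate block and leaving out each library in turn, and, chosen after the data were seen, leaving out siQk 2 and siNC 3 together and the unfiltered fit of Raver2.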

Additional observations from a re-analysis of the deposited data

How the results depend on the processing

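No member was called changed in the main test or in any of the 15 alternatives. The count over all genes was 1 in the main test, 5 by the edgeR exact test and 19 by DESeq2 (16 lower, 3 higher in siQk), and 0 to 1 when 1 library was left out (0 without siNC 1, where Qk had a log2 fold change of -3.09 and an adjusted p of 0.125 by edgeR). Qk ranged from -3.19 to -2.67 over the libraries left out. The direction turned for Ptbp1 (0.0167 without siQk 2, 0.0671 without siQk 2 and siNC 3), Raver1 (0.0665 without siQk 2) and Rest (-0.122 without siQk 2, -0.0370 without both), and the cause was not tested. Leaving out 1 library gave log2 fold changes of -0.171 to 0.0167 for Ptbp1, 0.13 to 0.44 for Ptbp2, 0.00 to 0.24 for Rod1, -0.305 to 0.0665 for Raver1, -0.41 to -0.30 for Srrm4, -0.12 to 0.52 for Rest, and a difference in mean log2 CPM of 0.50 to 1.99 for untested Raver2 (1.43 with all libraries). Total count scaling moved the median of all genes to 0.03.

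The replicate numbers were not taken to pair the libraries, since the correlations of deviations between same-numbered libraries were 0.21, 0.02 and -0.17. With a replicate block 1 gene was called and the log2 fold changes were 0.24 for Ptbp2, -0.35 for Srrm4 (unadjusted p = 0.117 by edgeR) and 0.25 for Rest, and no member call changed. With 3 libraries per group the spread between libraries, not depth, limited these values, except for Raver2 with 1 to 36 counts.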
